A study of Rattus norvegicus with 15 samples.

Results

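The genes described here met a rule on group means to which a small constant was added, as set out below. By that rule adipogenic medium raised them at least 4-fold and osteogenic medium left them within a factor of 2 of untreated cells. They were 32 of the 32883 rows of the count table that carry an Ensembl rat gene identifier. The study used bone marrow mesenchymal stem cells of Sprague-Dawley rats at passages 3 to 6, which were grown to confluence, and RNA was sequenced in 15 libraries. There were 5 groups of 3 libraries: Control (labelled untreated), Adi (adipogenic differentiation basal medium), Adi_ASA (the adipogenic medium plus aspirin, that is acetylsalicylic acid, which inhibits the cyclooxygenase enzymes), Ost (osteogenic differentiation basal medium) and Ost_ASA (the osteogenic medium plus aspirin). The sources used here do not give the composition of the media, the dose of aspirin or how long the cells were cultured. They also do not say whether replicates came from separate animals; a p-value therefore reflects only how these libraries vary, and that variation may be technical.

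The members were chosen on CPM (read counts scaled to the size of the library) averaged over each group, with 0.5 CPM added to each mean. The Adi/Control ratio had to be at least 4, the Ost/Control ratio above 0.5 and under 2, and the Adi mean at least 5 CPM. A further 6 identifiers were left out by name, of which 2 met these conditions. The values of Control, Adi and Ost thus chose the members. Adi and Ost against Control are given below as a description, without a test. The tests of aspirin against Adi or Ost use libraries that also served in the choice. With 0.5 CPM added, a gene that was near 0 in both Control and Ost met the second condition at once. The 32 members are referred to by their rank, 1 having the highest Adi/Control ratio of the rule. The table gives no gene symbols, and 0 of its rows could be paired with a symbol through the RefSeq gene table (assembly GRCr8), so a few members are named by identifier and the functions of all are not stated. For the same reason no promoter sequence is shown, and the labelled cell type could not be checked against marker genes.

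Marrow stromal cells can become fat cells or bone-forming cells. In culture, adipogenic induction engages the transcription factors PPARG and the C/EBP proteins, which switch on genes for lipid uptake, lipid storage and secreted fat-cell hormones. Bone formation follows another programme led by RUNX2, and genes switched on along one path are often kept silent along the other. Whether aspirin alters these paths was the question of the study.

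All 32 members had enough reads to be tested, which the condition on the Adi mean made near certain. Library totals ranged from 18373289 to 22817858 reads, and 15543 genes were tested in all. Levels below are CPM scaled by TMM factors, a correction for differences in library composition, and levels are compared between groups only, not between genes, since gene lengths were not used.

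By the ratio of the rule, the members formed a graded series rather than a uniform set. The added 0.5 CPM lowers that ratio most for members near 0 in Control, so their order largely follows the Adi level. Without it, the Adi/Control fold fitted by edgeR was 335, 545, 1370, 743 and 86.4 at ranks 1 to 5. The folds at ranks 3 and 4 each rest on 4 reads in Control. The Adi/Control ratio of the rule ran from 4.33 to 270.4 with a median of 9.47; it was at least 64 for 4 members, at least 16 for 11 and at least 8 for 18. The 5 members nearest above the limit had ratios of 4.33 to 5.1, and the 5 genes nearest below it had 3.7 to 3.92. The Ost/Control ratio of the rule ran from 0.523 to 1.82. Without the added 0.5 CPM, the Ost/Control fold fitted by edgeR lay outside 0.5 to 2 for some members of low level. It was 0.349 at rank 5 (80 reads in Control, 27 in Ost) and 0.121 at rank 21 (20 and 2 reads). At rank 31 it was 2.42 (47 and 112 reads).

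Most members were barely detected outside adipogenic medium. The mean level was under 1 CPM for 19 of the 32 in Control, for 19 in Ost and for 20 in Ost_ASA, and the median member had 0.556 CPM in Control, 0.453 in Ost and 0.703 in Ost_ASA, against 17.3 in Adi and 15.4 in Adi_ASA. No read was counted in any of the 6 osteogenic libraries for 3 members. Other members had a higher basal level: the Control mean was at least 10 CPM for 4. Among these, the member at rank 27 stood at 10.7, 7.61 and 46.2 CPM in Control, so its mean rested largely on replicate 3. The highest Control mean was 22.6 CPM, for the member with the lowest ratio, ENSRNOG00000042960 at rank 32. That gene stood at 27.3, 18.6 and 22 CPM in the Control libraries and at 110.3, 118.6 and 111.9 CPM in the Adi libraries.

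**Figure D1:**
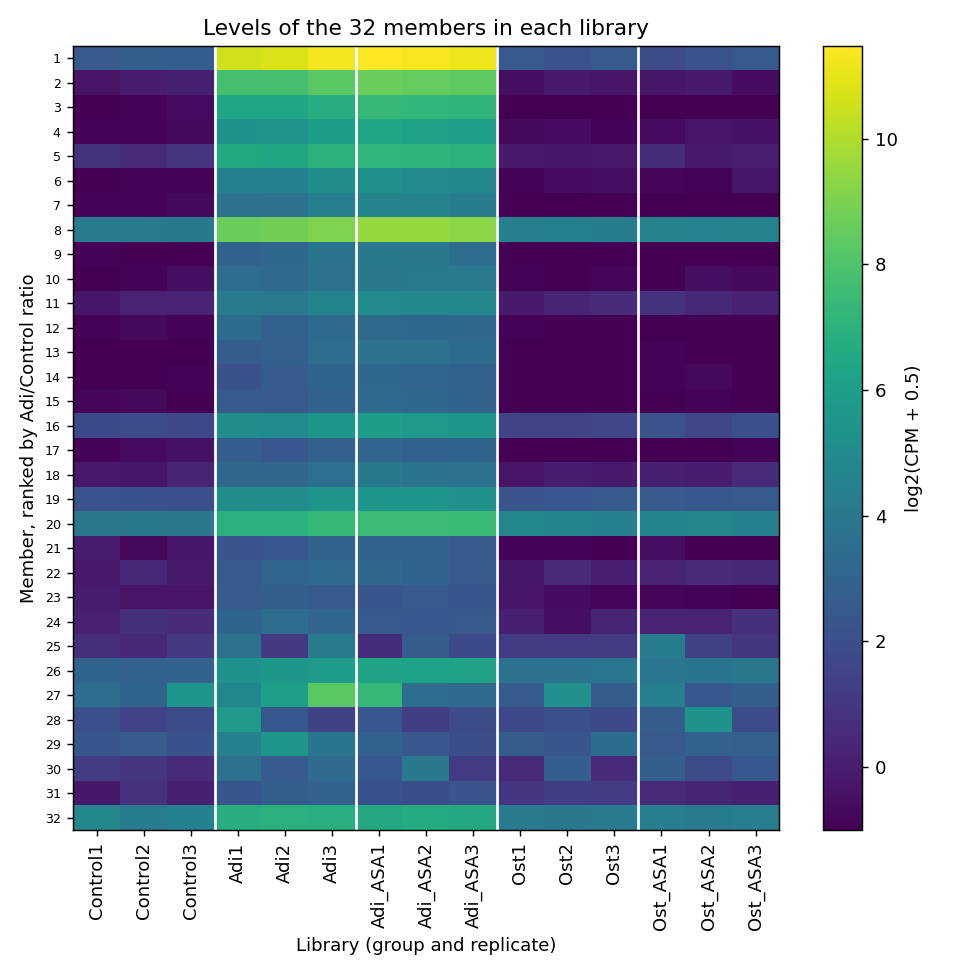
Level of each of the 32 members (rows, ranked by the Adi/Control ratio of the rule) in each of the 15 libraries (columns), as log2 of CPM + 0.5 in colour. Most rows are bright in the 6 adipogenic libraries alone, while rows 25 and 27 to 30 change from library to library within groups.

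The member with the highest ratio of the rule, ENSRNOG00000013552, was high in the adipogenic libraries alone. It was at 5.09, 6.39 and 6.06 CPM in the Control libraries, at 1546, 1806 and 2508 CPM in Adi and at 2847, 2642 and 2298 CPM in Adi_ASA. In osteogenic medium it was at 5.11, 4.14 and 5.32 CPM, and with aspirin at 3.08, 4.0 and 5.21 CPM. The summed level of all members was 96.2 to 156.2 CPM in the 9 libraries without adipogenic medium. It was 2978, 3303 and 4611 CPM in Adi and 5209, 4800 and 4220 CPM in Adi_ASA. ENSRNOG00000013552 alone made up 51.9% to 55.0% of it in the adipogenic libraries. Without that gene the sum was 89.8 to 153.1 CPM in the 9 libraries and 1431.5 to 2361.9 CPM in the adipogenic ones.

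ENSRNOG00000015086, at rank 2, was near silent without adipogenic medium. Its level was 0.290, 0.513 and 0.573 CPM in Control, 221.4, 218.8 and 307.1 CPM in Adi, 396.4, 367.4 and 335.4 CPM in Adi_ASA, 0.215, 0.419 and 0.355 CPM in Ost, and 0.357, 0.419 and 0.175 CPM in Ost_ASA. All adipogenic libraries lay far above all others, and the Adi_ASA libraries lay above the Adi libraries.

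The aspirin-treated groups took no part in the choice of members, so Adi_ASA against Ost_ASA tests the difference between the media in libraries the rule did not use. Of the 32 members, 27 were higher in Adi_ASA than in Ost_ASA (edgeR quasi-likelihood test, Benjamini-Hochberg adjusted p under 0.05), where 32.9% of all genes tested were higher. All 3 Adi_ASA libraries lay above all 3 Ost_ASA libraries for these 27, which held for 34.9% of all genes. No member was lower, against 32.8% of all genes; at an unadjusted p under 0.05 there were also 0 lower, against 34.1%, and DESeq2 called 1 lower, against 27.7%. The count of 27 was the same under all 12 alternatives run, including a fit to these 6 libraries alone. The median log2 difference was 5.78 over the members, 5.82 with members of few reads set at their bound or ratio, and 0.01 over all genes.

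ENSRNOG00000013552 was 632-fold higher in Adi_ASA than in Ost_ASA (log2 difference 9.30, SE 0.25, edgeR adjusted p = 1.03e-11) and ENSRNOG00000015086 was 1143-fold higher (10.16, SE 0.23, edgeR adjusted p = 1.3e-13). In 4 members no read was counted in Ost_ASA, and against 3 reads over that group they were at least 200-fold to at least 3372-fold higher in Adi_ASA. Another 5 members had 1 to 3 reads in Ost_ASA. Of the 23 members with more reads, 18 passed the test, with differences of 5.02-fold to 1143-fold. The 5 members that did not pass were those at ranks 25 and 27 to 30.

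Ratios to Control, which the rule did use, were also taken with 0.5 CPM added. By these, 25 members were at a ratio of at least 4 in Adi_ASA and 28 stayed between 0.5 and 2 in Ost_ASA, and 24 met both conditions. The Adi_ASA/Control ratio reached 374, with a median of 14.3.

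Aspirin in adipogenic medium was compared with the same medium alone. The Adi libraries had also served to choose the members for a high Adi level, so the aspirin estimates are not independent of that choice. More members rose than fell: 7 were higher in Adi_ASA than in Adi and 1 was lower (edgeR adjusted p under 0.05), where 2.49% of all genes tested were higher and 1.85% lower. At an unadjusted p under 0.05 the counts were 16 higher and 4 lower, against 9.22% and 7.85% of all genes. The estimate was positive for 22 of the 32, and its median was 0.40 on the log2 scale over the members and 0.00 over all genes. All 3 Adi_ASA libraries lay above all 3 Adi libraries for 13 members, which held for 12.1% of all genes, and below for 5 members, which held for 11.5%.

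The member with the largest called rise was ENSRNOG00000001001, at rank 3. It was at 80.0, 84.0 and 108.0 CPM in Adi and at 160.3, 152.2 and 142.6 CPM in Adi_ASA, so the groups did not overlap. The rise was 1.67-fold (log2 0.74, SE 0.13, edgeR adjusted p = 0.0167). It lost its call in 5 of the 12 alternatives (adjusted p up to 0.0748), among them the fits without Adi replicate 2 and without any 1 of the Adi_ASA libraries, at 0.69 to 0.79 on the log2 scale. No read of it was counted in the 6 osteogenic libraries, and 4 reads in Control.

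ENSRNOG00000019466, at rank 26, had a moderate level in Control. It was at 7.70, 7.19 and 7.16 CPM in Control, 41.3, 48.3 and 56.9 CPM in Adi and 76.8, 75.6 and 72.5 CPM in Adi_ASA. It rose 1.54-fold with aspirin (log2 0.62, SE 0.09, edgeR adjusted p = 0.000183) and passed the test in all 12 alternatives. The other members called higher were at ranks 2, 4, 8, 16 and 20. The leading member, ENSRNOG00000013552, had an estimate of 0.41 (SE 0.17) and did not pass (edgeR adjusted p = 0.23), with Adi replicate 3 above the lowest Adi_ASA library.

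**Figure D2:**
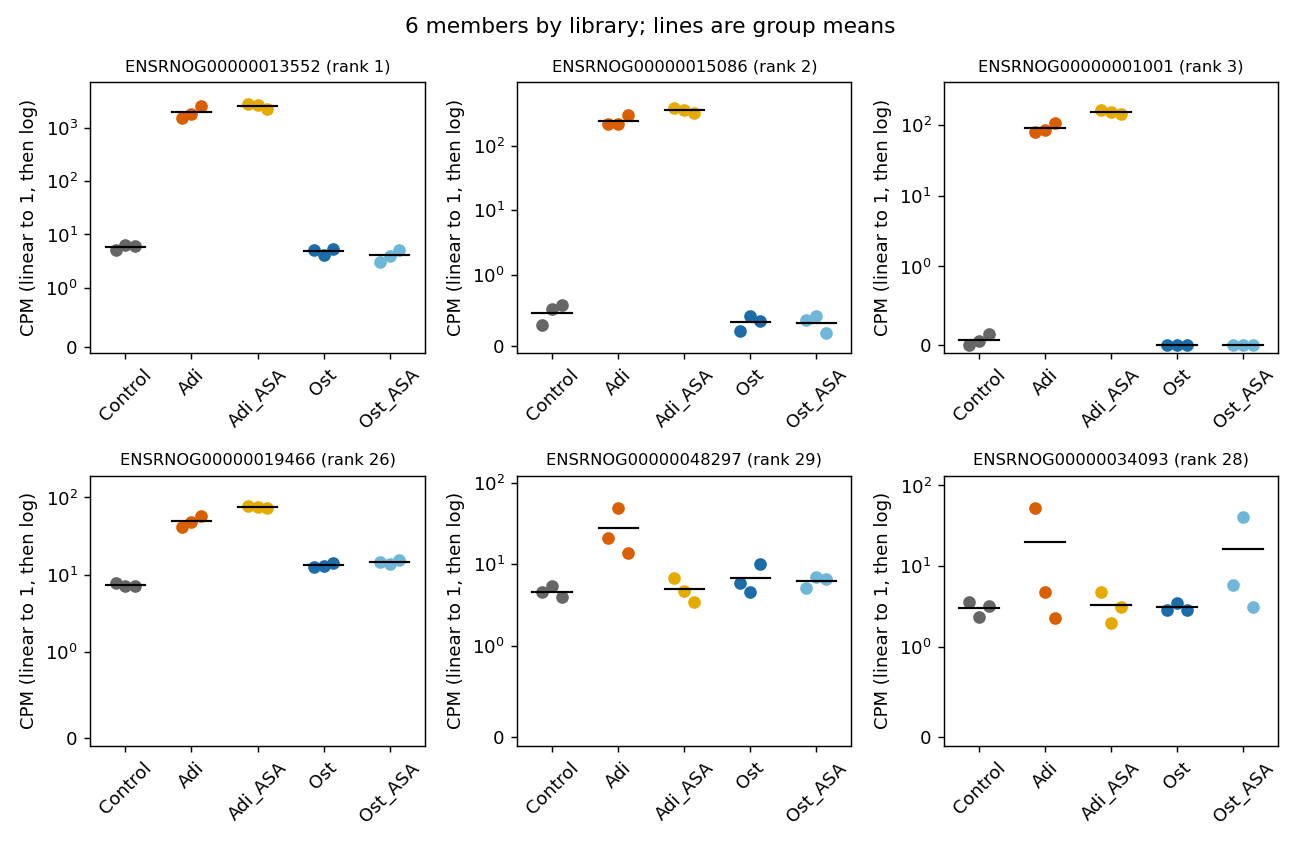
CPM in each library (points, replicates 1 to 3 from left to right) and the group mean (line) for 6 members, on an axis that is linear up to 1 CPM and logarithmic above. ENSRNOG00000034093 is at 53.0 CPM in Adi replicate 1 and 2.29 in Adi replicate 3, and ENSRNOG00000048297 at 48.7 in Adi replicate 2 and 13.7 in Adi replicate 3. The Adi replicates of the other members shown lie closer together.

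The aspirin estimates are given next by the size of the Adi/Control ratio. Among the 18 members with an Adi/Control ratio of at least 8, all 18 estimates were positive (0.01 to 0.74, median 0.52), with 5 called higher and 0 lower. Among the 14 members with smaller ratios, 4 were positive and 10 negative (median -0.30), with 2 called higher and 1 lower. Of those 10 negative estimates, 6 belonged to the members, described below, with at least 1 Adi library under the 4-fold limit. The other 8 members of the 14 divided into 4 positive and 4 negative. Adi enters both the ratio and the aspirin estimate, and the split was made with these values known, so no relation is read from it.

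**Figure D3:**
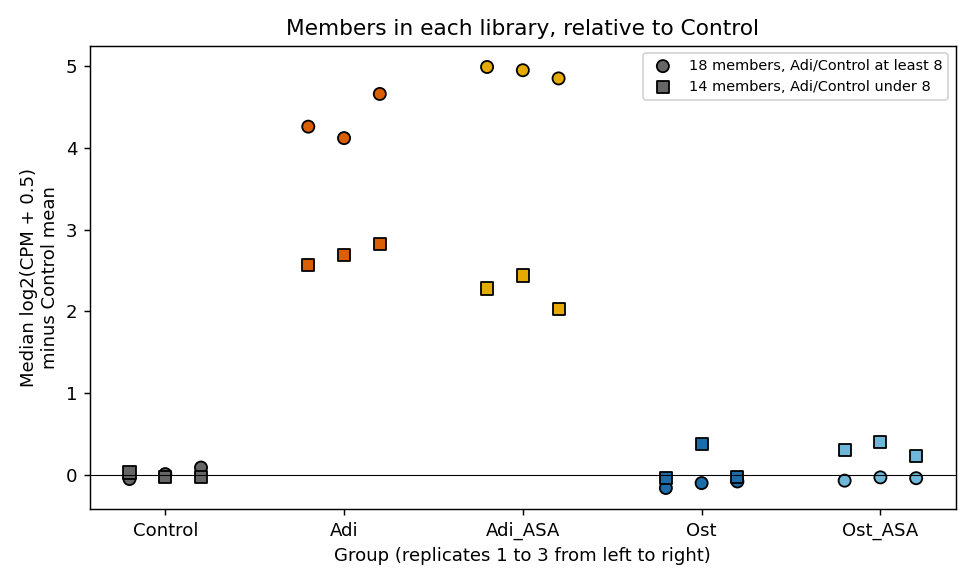
Median over members of log2(CPM + 0.5) minus the Control mean in each library, for the 18 members with an Adi/Control ratio of at least 8 (circles) and the 14 with a smaller ratio (squares). The circles lie at 4.12 to 4.66 in Adi and 4.85 to 4.99 in Adi_ASA, and the squares at 2.57 to 2.83 and 2.03 to 2.44.

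The Adi libraries differed from each other in the same way across most members. Adi replicate 3 was the highest of the 3 for 25 of the 32 members, and for 17 of the 18 with a ratio of at least 8. It was the highest for 37.6% of the 10415 tested genes with at least 5 CPM in Adi. The Adi values chose the members, and those at ranks 14, 15, 21 and 27 did not meet the rule without Adi replicate 3. These counts are thus partly set by the choice. Among the Adi_ASA libraries, replicate 3 was the lowest for 24 members, against 29.2% of those genes. The aspirin result also changed when single libraries were left out, which leaves fewer data for the test. Without Adi replicate 3, 11 members were called higher and the median estimate was 0.62; without Adi replicate 1 or 2, 3 and 2 were called higher, with medians of 0.30 and 0.33. Without Adi_ASA replicate 1 or 2, 3 were called higher in each case, and without replicate 3, 5 were. The estimate was positive for 21 to 24 members in every one of these fits. The share of all genes called in these fits is not given, so the counts are not read as a result about the members.

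In adipogenic medium the only member called lower with aspirin, ENSRNOG00000048297 at rank 29, varied widely in Adi. It was at 21.2, 48.7 and 13.7 CPM there, at 6.85, 4.78 and 3.46 CPM in Adi_ASA and at 4.59, 5.41 and 3.96 CPM in Control. The groups did not overlap, and Adi_ASA was near Control. It was lower in Adi_ASA than in Adi (log2 fold change -2.47, SE 0.48, edgeR adjusted p = 0.018). The rule chose this gene for a high Adi mean, and without Adi replicate 2 it no longer met the rule. The estimate is not independent of that choice, so no effect of aspirin is read from it. The gene lost its call without Adi_ASA replicate 2 (adjusted p = 0.0709), without Adi_ASA replicate 3 (0.0908) and with only the Adi and Adi_ASA libraries in the edgeR fit (0.149).

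The Adi libraries were uneven for some members. Taken singly, all 3 Adi libraries reached the 4-fold limit over Control for 26 members and not for the 6 at ranks 25 and 27 to 31. A ratio near the limit also counts here: at rank 31 the highest Adi library was only 1.57 times the lowest. When the rule was applied without Adi replicate 1, the member at rank 28 no longer met it. Without Adi replicate 2, those at ranks 23 and 29 did not. Without Adi replicate 3, those at ranks 14, 15, 21 and 27 did not. The rule means in Adi at ranks 14, 15, 21 and 23 were 5.23, 5.44, 5.08 and 5.32 CPM, near the limit of 5 CPM. Their Adi/Control ratios were 6.64 to 11.1 with all libraries used. Over all members the highest Adi library was at the median 1.48 times the lowest, against 1.12 for tested genes of at least 5 CPM in Adi. It was above 2 times the lowest for 6 members, against 1.24% of those genes. The Adi values chose the members, and a gene could enter through 1 high Adi library, so no result is read from this comparison. In Adi_ASA, which the rule did not use, the medians were 1.24 and 1.1. There 4 members were above 2 times, against 1.1% of those genes. ENSRNOG00000034093, at rank 28, was at 53.0 CPM in Adi replicate 1, 4.83 in replicate 2 and 2.29 in replicate 3. In Ost_ASA it was at 5.89, 40.6 and 3.11 CPM, and in all other libraries between 2.02 and 4.79 CPM, so that 1 library stood high in each of those groups. ENSRNOG00000037607, at rank 27, was at 26.4, 64.9 and 312.0 CPM in Adi, at 156.0, 10.5 and 9.08 CPM in Adi_ASA, and reached 46.2 CPM in Control replicate 3 and 38.7 CPM in Ost replicate 2. Both were singled out after their values were seen. The highest libraries were not the same ones for both genes.

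In osteogenic medium, where most members were low, 1 of the 32 passed the test with aspirin. The Ost libraries had also served to choose the members, for an Ost/Control ratio above 0.5 and under 2. Against Ost, 0 members were higher in Ost_ASA and 1 was lower (edgeR adjusted p under 0.05), where 2.34% of all genes were higher and 1.29% lower. At an unadjusted p under 0.05, 4 were higher and 2 lower, against 8.78% and 6.03% of all genes, and DESeq2 also called 0 higher, against 3.13%. Low counts limit this comparison, since 9 members had fewer than 10 reads over the 6 libraries. Of the other 23, 16 estimates were positive and 7 negative, with a median of 0.24. The member called lower was ENSRNOG00000019851, at rank 31, at 1.42, 1.99 and 1.82 CPM in Ost and 0.892, 0.744 and 0.569 CPM in Ost_ASA, from 112 and 49 reads (log2 -1.23, SE 0.31, edgeR adjusted p = 0.0287). The call was lost without Ost replicate 2 or 3 and without Ost_ASA replicate 2 or 3 (adjusted p 0.0858 to 0.138).

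**Figure D4:**
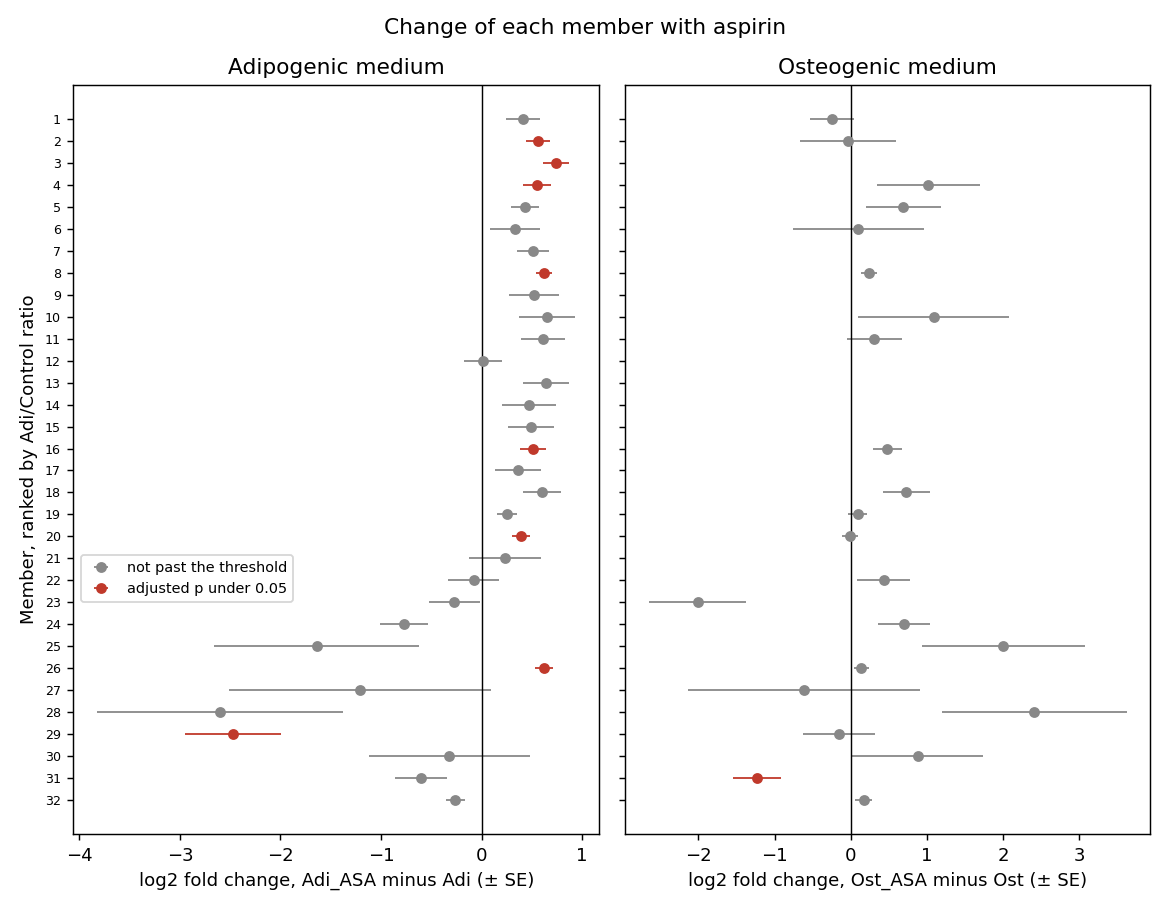
Log2 fold change with aspirin (± SE) of each member in adipogenic medium (left, 32 members) and in osteogenic medium (right, the 23 members with at least 10 reads over the 6 osteogenic libraries), by rank. Red points passed the edgeR test at an adjusted p under 0.05: 8 on the left, 7 of them to the right of 0, and 1 on the right, to the left of 0.

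The difference between the 2 aspirin effects was tested directly, with Adi and Ost libraries that had also served to choose the members. It passed for 1 member, ENSRNOG00000019466, whose aspirin effect was more positive in adipogenic medium, and for no member in the other direction (edgeR adjusted p under 0.05), against 1.2% and 1.63% of all genes. At an unadjusted p under 0.05, 5 were more negative, against 7.24% of all genes, and DESeq2 called 3, against 2.96%. For ENSRNOG00000019466 the difference was 0.47 (SE 0.13, edgeR adjusted p = 0.0488), and the call was lost in 12 of 18 alternatives. In Ost it stood at 12.6, 12.9 and 14.3 CPM and in Ost_ASA at 14.6, 13.7 and 15.6 CPM (log2 0.14, SE 0.10, edgeR adjusted p = 0.536). For the other 31 members, a rise in adipogenic medium with no called rise in osteogenic medium is thus not shown to be a difference between the media.

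Genes that passed the same 4-fold limit in adipogenic medium but were moved by osteogenic medium are set beside the members, by counts alone. Of 37 genes raised in both media (Ost/Control at least 2), aspirin in adipogenic medium raised 3 and lowered 6 by the same test, and 15 estimates were positive. Of 14 genes raised in adipogenic and lowered in osteogenic medium (Ost/Control at most 0.5), 4 were higher and 2 lower, and 9 were positive. The members, with 7 higher, 1 lower and 22 positive of 32, used the same Adi libraries, and the differences between these sets were not tested. Of all genes tested, 2.49% were higher and 1.85% lower. The Adi libraries also served to choose each of these sets.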

How the data were processed

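The deposited table held raw read counts of 34480 rows in 15 libraries; 1597 rows had no Ensembl identifier, and 0 of them met the rule. Build Rnor_6.0 and the tools DESeq 1.18.0, HTSeq 0.9.1 and HISAT2 2.0.4 are named in the submitters' processing notes, without their settings. The sources used here do not state strand or annotation release, so overlapping or near-identical genes are uncertain. Tests used edgeR 4.0.16 under R 4.3.3 (filterByExpr, TMM, glmQLFit with robust estimation, glmQLFTest) in 1 model of all 15 libraries, with Benjamini-Hochberg adjustment over 15543 genes at 0.05. SE is the log2 fold change divided by the square root of F. A fold against 0 reads is a bound at 3 reads over the group. DESeq2 1.42.0, RLE factors, no filter, the groups compared alone, a replicate block and leaving out single libraries were alternatives; scaling by library totals was added after seeing the data. The model was tested on simulated counts.

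Counts of replicate pairs differed beyond sampling noise (chi-square over its degrees of freedom, 5.41 to 13.5), so none was counted as a duplicate. The members and lists were chosen with earlier results of these data known. Members were to be named by symbol; without symbols, at most 2 that rise and 2 that fall per comparison are named, with the 2 of highest ratio, the 1 of lowest ratio and 2 picked after seeing their values. The gene lists and promoter motifs planned could not be matched and were not used.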

Additional observations from a re-analysis of the deposited data

Results flagged for a closer look

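ENSRNOG00000019466 stood out because a direct test called the effect of aspirin different between the media. The adipogenic minus osteogenic difference was 0.47 on the log2 scale (SE 0.13, edgeR adjusted p = 0.0488). This gene was the 1 member called of 32, where 1.2% of all genes were called in this direction. The Adi and Ost libraries in the test had also served to choose the members. All 3 Adi_ASA libraries (72.5 to 76.8 CPM) lay above all 3 Adi libraries (41.3 to 56.9 CPM), while Ost_ASA (13.7 to 15.6 CPM) and Ost (12.6 to 14.3 CPM) overlapped. The call was lost in 12 of 18 alternatives. The adjusted p ranged up to 0.134 over the alternatives, the highest being without Ost replicate 3.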

How the results depend on the processing

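The 27 members higher in Adi_ASA than in Ost_ASA numbered 27 in all 12 alternatives, and DESeq2 called 1 lower. For Adi_ASA against Adi, the 7 higher became 4 with no filter and 4 with only the groups compared, and 2 to 11 when single libraries were left out; the 1 lower became 2 with DESeq2, 2 with only the groups compared, and 0 to 1 without single libraries. For Ost_ASA against Ost, the 1 lower became 0 to 1 without single libraries. For the difference of aspirin effects, the 1 more positive became 0 with RLE factors, 0 with only the groups compared, 3 with library totals and 0 to 3 without single libraries; the 0 more negative became 3 with DESeq2, 1 with no filter, 1 with only the groups compared, and 0 to 1 without single libraries. The cause was not tested. Shares of all genes called are not given here for the alternative fits, the replicate block among them. Their counts are therefore not read as a result about the members. The replicate numbers did not pair the libraries (correlation of deviations -0.07 to 0.04 over 30 pairs); with a replicate block, aspirin in adipogenic medium raised 5 members and lowered 1, and ENSRNOG00000001001 had an adjusted p of 0.0591, the only call lost among the 7 gene results that were refitted. The number of members was 18 with an Adi/Control limit of 8 and 38 with group means on TMM-scaled CPM. It was 29 with 0.1 CPM added to each mean and 34 with 1 CPM added. None of these 7 gene results (ENSRNOG00000013552 and ENSRNOG00000015086 for Adi_ASA against Ost_ASA, ENSRNOG00000001001, ENSRNOG00000019466 and ENSRNOG00000048297 for Adi_ASA against Adi, ENSRNOG00000019851 for Ost_ASA against Ost and ENSRNOG00000019466 for the difference) changed sign.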
